A study of Homo sapiens with 6 samples.

Results

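Histone genes were examined on 6 single-colour Affymetrix 3′ arrays labelled as HSC2, an established line of human oral carcinoma cells. The genes were taken by name from the platform annotation: probe sets with a single gene symbol that starts with H1-, H2AC, H2BC, H3C, H4C, H2AZ, H2AX, H3-3 or MACROH2A. This gave 48 genes measured by 57 probe sets, of 11963 genes with a single-symbol probe set. A gene with several probe sets was read from the brightest of them by its mean over the 6 arrays. Of the 48 genes, 41 had symbols of the clustered, replication-dependent kind and 7 were variants, namely H2AX, H2AZ1, H2AZ2, H3-3A, MACROH2A1, MACROH2A2 and the linker histone gene H1-10. Among the 41, H2AC25 and H2BC12L carry such symbols but lie outside the main clusters, on chromosomes 1 and 21. By their labels, 3 arrays held RNA of HSC2 cells stably transfected with cDNA of full-length wild-type MALT1, and 3 arrays, called mock, RNA of HSC2 cells transfected with the vector alone. Both lines were kept in DMEM with fetal bovine serum, penicillin and streptomycin. MALT1 is a paracaspase of NF-kappaB signalling, and the study looked for genes that respond to it. The labels name neither separate cultures for the 3 samples of each line nor the number of clones, so p-values reflect just the spread among these 6 samples, possibly technical.

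Histones are the proteins around which DNA is wound. H2A, H2B, H3 and H4 form the core of the nucleosome, and H1 binds the linker DNA between cores. The clustered genes supply the bulk of these proteins during S phase. Their mature transcripts usually end in a stem-loop in place of a poly(A) tail, although polyadenylated forms of some exist. Variant genes such as H2AZ1 or H3-3A are expressed throughout the cell cycle, and their polyadenylated transcripts encode proteins exchanged into chromatin outside replication. Standard 3′ array labelling starts from the poly(A) tail, so the signals of clustered genes follow mainly their polyadenylated transcripts. Clustered genes of a type are near-identical in their coding parts, and a probe set can bind several of them, so each value is uncertain as to which gene of the type it reads.

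The promoters of 5 clustered genes are shown because they span the responses found: H4C11, H2BC21 and H2AC25 rose on the arrays labelled MALT1, H1-1 fell, and H2BC12 did not pass. Each run holds the 150 bases before the RefSeq start site, 5′ to 3′ on the gene's strand (GRCh38.p14). Capitals mark the CCAAT box, the TATAAA box and the octamer ATTTGCAT, or their reverse complements.
H4C11 (chr6:27823942-27824091, plus strand): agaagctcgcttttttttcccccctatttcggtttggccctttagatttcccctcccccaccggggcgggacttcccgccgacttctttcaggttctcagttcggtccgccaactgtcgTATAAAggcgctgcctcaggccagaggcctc
H2BC21 (chr1:149886683-149886832, minus strand): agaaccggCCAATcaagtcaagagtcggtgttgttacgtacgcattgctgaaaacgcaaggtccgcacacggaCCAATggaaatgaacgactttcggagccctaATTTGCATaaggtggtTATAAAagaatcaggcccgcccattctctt
H2AC25 (chr1:228457874-228458023, minus strand): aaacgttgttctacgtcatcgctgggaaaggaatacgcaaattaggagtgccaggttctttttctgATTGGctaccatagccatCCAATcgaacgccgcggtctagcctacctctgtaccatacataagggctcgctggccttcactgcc
H2BC12 (chr6:27146859-27147008, minus strand): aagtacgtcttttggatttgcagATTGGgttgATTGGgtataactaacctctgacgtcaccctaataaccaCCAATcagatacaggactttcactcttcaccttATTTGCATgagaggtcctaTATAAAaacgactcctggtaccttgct
H1-1 (chr6:26017788-26017937, minus strand): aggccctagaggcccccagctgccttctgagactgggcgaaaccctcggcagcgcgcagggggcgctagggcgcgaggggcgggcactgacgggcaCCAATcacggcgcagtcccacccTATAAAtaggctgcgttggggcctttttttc

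The same letters were counted on both strands of the whole RefSeq window of 300 bases, from 250 before to 50 after the start, which matched 45 of the 48 genes. The 3 motifs overlapped in none of these windows. ATTTGCAT, the octamer long known from H2B promoters, was in the windows of 6 of 8 clustered H2A genes and 8 of 11 clustered H2B genes, and in 0 of 6 H1, 0 of 6 H3 and 0 of 7 H4 windows. It was in 1.8% of the windows of all 27305 genes in the RefSeq table. Neighbours transcribed away from each other had equal counts of all 3 motifs: H2AC14 and H2BC14, H2AC15 and H2BC15, H2AC17 and H2BC17. Their windows may overlap, which was not examined, so the windows counted may not all be separate. CCAAT was in 33 of 38 clustered windows (86.8%, against 35.7% of all windows), and the H4 genes stood apart with 2 of 7. TATAAA was in 25 of 38 clustered windows (65.8%, against 12% of all). Of the clustered windows, 12 belonged to genes that rose, 3 to genes that fell and 23 to genes that did not pass. CCAAT was in 10, 3 and 20 of these, TATAAA in 7, 3 and 15, and ATTTGCAT in 5, 1 and 8. The 7 variant windows held CCAAT in 4, TATAAA in 3 and the octamer in 0. H2BC21, which rose, and H2BC12, which did not pass, both carry the octamer ahead of TATAAA in the runs above.

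Facts of the whole series bear on these values. The MALT1 transcript was lower on the arrays labelled MALT1 on each of its 3 probe sets (log2 fold changes −1.08, −0.47 and −0.28, of which the first and second passed), so its level goes against the labels, and the groups are named as labelled throughout. Where the probes lie relative to the transfected cDNA was not analysed here. Of 8 measured squamous epithelium markers 8 fell, with KRT5, a basal keratin, at 1003 ± 14.3 against 5593 ± 601, and of 12 luminal breast markers 11 rose, with GATA3, a luminal transcription factor, at 12862 ± 1303 against 191 ± 25.7 (mean ± SD, n = 3 each). KRT19 read 12414 ± 567 against 1.25 ± 0.0665, and TFF1, an estrogen-responsive gene, 15491 ± 264 against 11.4 ± 2.47. The summed signal of the squamous list lay between 14511 and 16356 in the MALT1 group and between 38153 and 43211 in the mock group, and that of the luminal list between 76967 and 85412 and between 8903 and 9648. Of 6 fibroblast markers 1 fell (LUM) and the rest did not pass (sums 118 to 244 and 121 to 183). LUM read just 17.8 to 21.2 on the mock arrays, near the control level of 17.6, and was below that level on the arrays labelled MALT1. Of 4 lymphocyte and blood markers none passed (sums 64.9 to 137 and 91.0 to 119), with PTPRC at or below the control level on all arrays. In these data MALT1 and any other difference between the groups, the identity of the cells included, cannot be told apart, so each fold change below compares arrays as labelled. The part of the marker differences in the histone values was not tested. For ACTB the 3′ probe set over the 5′ one, a measure of RNA or copy length, was between 3.6 and 4.46 in the MALT1 group and between 3.59 and 3.98 in the mock group. MALT1 replicate 3 held the highest ACTB ratio and the fewest probe sets at or below 17.6 (25.6%, against 31.7% to 33.3% on the other arrays). The control level is the brightest reading of the bacterial trp spots, and a gene called dim in a group was no brighter than that on its 3 arrays, so its level there is a bound.

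Among clustered histone genes, 4 of 8 H2A, 4 of 7 H3, 3 of 12 H2B, 2 of 8 H4 and 0 of 6 H1 genes rose. The H2B and H4 shares were near the 21.1% of all genes that rose. Linker H1 genes made up 2 of the 3 falls. Of the 41 clustered genes, 13 rose, 3 fell and 25 did not pass (limma, Benjamini-Hochberg adjusted p under 0.05). In all, 39% of the clustered genes passed, and over all 11963 genes 40.4% did, so the share that changed was near the background. In bulk RNA, a different share of cells in S phase and a different amount of histone RNA per cell cannot be told apart. The rises were 13 of 41 where 21.1% of all genes rose, and the falls were 3 of 41 where 19.2% fell. With a fitted change of at least 2-fold 10 clustered genes rose and 2 fell, where 10.8% and 9.64% of all genes did. Without the clustered genes that were dim in a group these were 9 and 1. Apart from H1-1, which passed when any single array was left out, the falls rested on few arrays. In all 1 fall remained without mock replicate 2 or mock replicate 3, and 2 without any other single array. The rises numbered 9 without MALT1 replicate 1 and 10 to 13 without any other single array. The median log2 fold change of the 41 was 0.52, or 0.32 with dim genes at their bound, beside 0.08 over all genes. Dividing each array by its own median lowered the median of all genes by 0.13, and the clustered counts became 11 higher and 4 lower. After quantile normalization they were 9 and 5. The medians of the 5 types kept their signs under both. Over all genes 52.4% of calls were higher as deposited, 43.7% after median centring and 50.5% after quantile normalization.

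**Figure D1:**
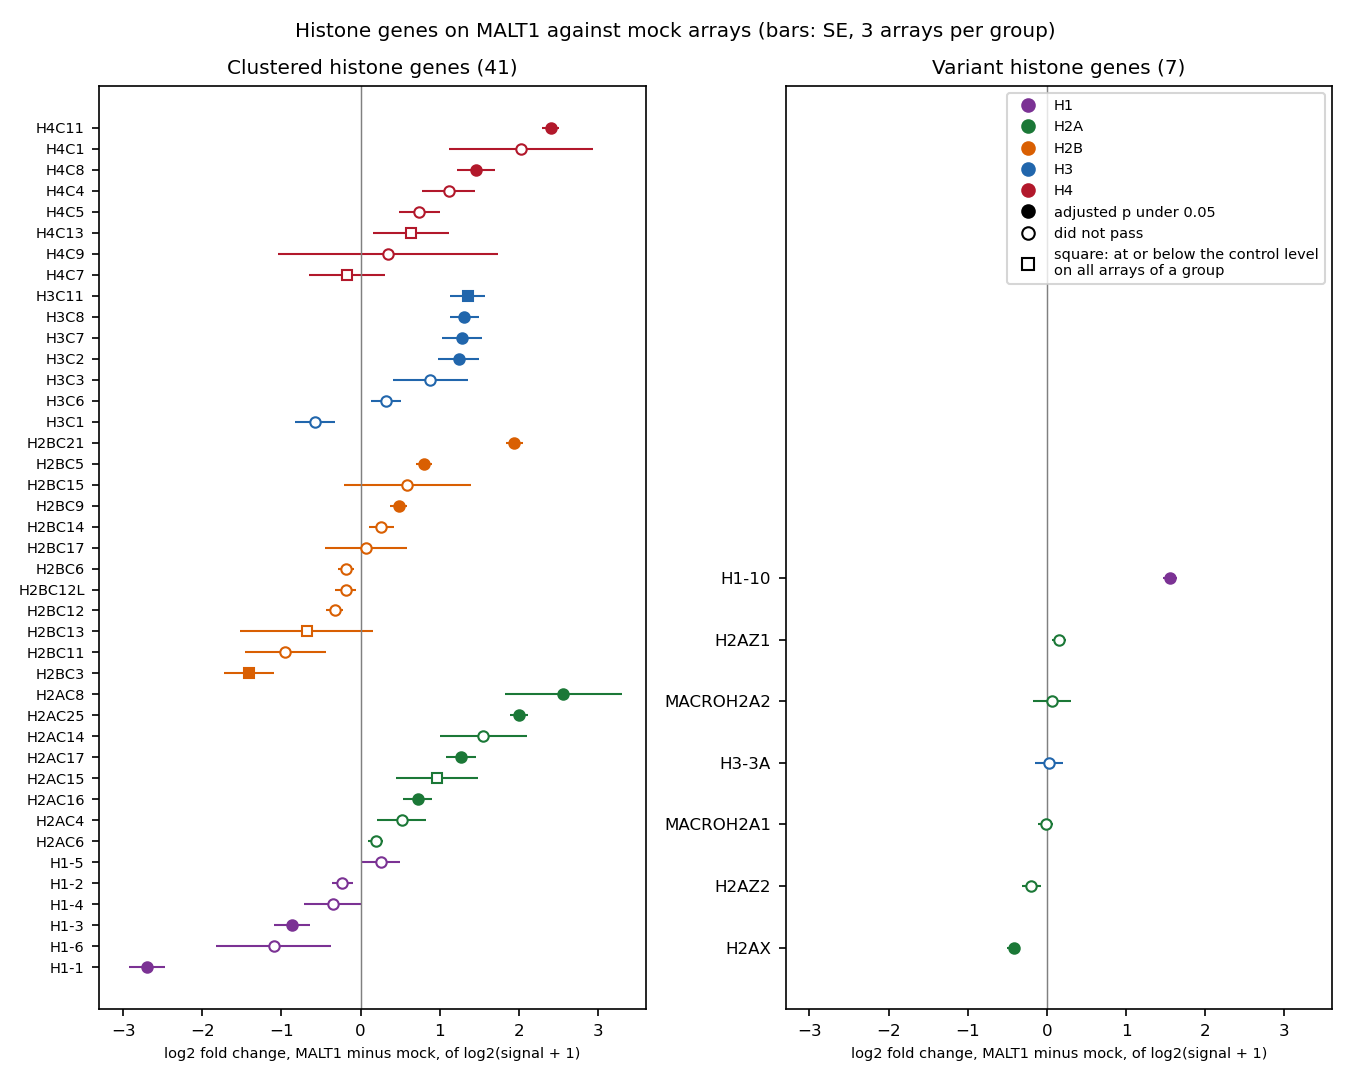
Log2 fold change (arrays labelled MALT1 minus mock, of log2(signal + 1)) of each histone gene, with the SE as bars, clustered genes by type on the left and variants on the right. H3, H4 and H2A genes lie mostly to the right of 0, H1 genes mostly to the left, and among the variants H1-10 at 1.55 stands apart from the other 6, which lie between −0.42 and 0.15.

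The clustered H4 genes included the clearest rise. Of 8 genes, 2 rose, 0 fell and 6 did not pass, with a median log2 fold change of 0.93. H4C11 read 509, 476 and 518 on the arrays labelled MALT1 and 84.4, 105 and 92.7 on those labelled mock. Every array labelled MALT1 was thus well above every mock array. The log2 fold change was 2.40 ± 0.11 SE (adjusted p = 0.00014), a 5.29-fold rise. H4C11 was read by an x_at probe set, a kind that can bind several transcripts, as were H3C8, H2BC5 and H2BC9. H4C8 read 86.0, 83.2 and 110 against 23.9, 38.1 and 39.6, again without overlap (log2 fold change 1.46 ± 0.24 SE, adjusted p = 0.00759). H4C4 and H4C5 did not overlap between the groups but did not pass: H4C4 read 40.1 ± 9.75 against 18.7 ± 7.63 (adjusted p = 0.0585, or 0.0315 without mock replicate 3 and 0.0341 with a pseudocount of 16) and H4C5 57.2 ± 14.9 against 33.8 ± 8.57 (adjusted p = 0.0854). The other 4, H4C1, H4C7, H4C9 and H4C13, lay near or below the control level with wide spreads, and H4C7 and H4C13 were dim in both groups. H4C1 had an adjusted p of 0.155, or 0.00373 without mock replicate 1, the mock array in which it was highest.

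Among the clustered H3 genes H3C2, H3C7, H3C8 and H3C11 rose. Of 7 genes 4 rose, none fell and 3 missed the threshold, and the median log2 fold change was 1.24. H3C8 read 135, 146 and 144 on the arrays labelled MALT1 and 53.2, 46.6 and 72.8 on the mock arrays. The groups were apart, with the mock arrays more spread (log2 fold change 1.31 ± 0.18 SE, adjusted p = 0.00428). H3C7 read 87.0, 73.5 and 53.5 against 27.0, 23.3 and 36.0 (1.28 ± 0.25, adjusted p = 0.0132; adjusted p = 0.055 after quantile normalization). H3C2 read 46.5, 38.2 and 64.0 against 25.4, 15.7 and 20.1 (1.24 ± 0.26, adjusted p = 0.0177). Its call was lost without MALT1 replicate 1 (adjusted p = 0.0536), mock replicate 2 (0.0534) or mock replicate 3 (0.0579). H3C11 was dim on all 3 mock arrays, at 5.82 to 10.6, and read 19.7 to 22.1 on the arrays labelled MALT1, at least 1.18-fold higher (adjusted p = 0.00703, or 0.0502 after quantile normalization). Of the 3 that did not pass, H3C1 had a log2 fold change of −0.58 and passed as lower after quantile normalization, H3C3 had 0.88 and H3C6 0.32.

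All 8 clustered H2A genes had a positive log2 fold change, also under both other scalings. As deposited, 6513 of all 11963 genes had one. The 8 include H2AC15, dim in both groups, and may not be separate readings, as a probe set can bind several genes of a type. Of the 8, 4 passed (3 after median centring and 2 after quantile normalization). H2AC25, a gene of a small histone group apart from the main clusters, read 820, 792 and 908 on the arrays labelled MALT1 and 188, 213 and 227 on those labelled mock. The groups were far apart relative to their spread, and the rise was 4.01-fold (log2 fold change 2.0 ± 0.11 SE, adjusted p = 0.00024). H2AC17 read 165, 170 and 120 against 60.8, 71.1 and 54.3 (1.27 ± 0.19, adjusted p = 0.00494). H2AC8 read 97.9, 119 and 114 against 25.4, 40.3 and 5.07, so that its log2 fold change of 2.56 carried an SE of 0.74 (adjusted p = 0.0482). Its call was lost without MALT1 replicate 1, 2 or 3 (adjusted p = 0.108, 0.122 and 0.116), without mock replicate 1 (0.0895) and after quantile normalization (0.0514). The low mock replicate 3 stands apart from the other mock arrays here. H2AC16 rose by 0.72 ± 0.18 on the log2 scale, to 59.6 ± 3.21 from 36.3 ± 7.62 (adjusted p = 0.0311), a call that was lost without any 1 of the 3 arrays labelled MALT1, without mock replicate 2 and after median centring or quantile normalization. H2AC14 read 122 ± 19.9 against 47.2 ± 26.2 and did not pass (adjusted p = 0.086), although it passed without mock replicate 1 (0.0223), with a pseudocount of 16 (0.0371) and when dimmer probe sets were dropped (0.0226). H2AC6 read 680 ± 36.1 against 594 ± 31.8 (adjusted p = 0.174). H2AC4 read 45.5 ± 17.1 against 30.5 ± 6.02, and H2AC15 was dim in both groups.

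Clustered H2B genes went both ways. Of 12 genes, 3 rose, 1 fell and 8 did not pass, with a median log2 fold change of −0.056. H2BC21, of the cluster on chromosome 1, read 369, 349 and 364 on the arrays labelled MALT1 and 104, 83.2 and 94.7 on those labelled mock. With little spread in either group, the rise was 3.83-fold (log2 fold change 1.94 ± 0.11 SE, adjusted p = 0.00024). H2BC5 read 1131, 1123 and 1301 against 676, 701 and 662 (0.80 ± 0.10, adjusted p = 0.00274), and its second probe set rose by 1.11. H2BC9 rose from 406 ± 34.2 to 567 ± 40.3 (0.48 ± 0.11, adjusted p = 0.022), a call lost without MALT1 replicate 1 or 2 and without mock replicate 1 or 3, and after median centring. H2BC12 read 4285, 4346 and 4890 against 5112, 5891 and 6048. Its groups did not overlap, with the mock arrays higher, but the log2 fold change of −0.33 ± 0.11 SE did not pass (adjusted p = 0.0756). It passed as lower after median centring (adjusted p = 0.0388), quantile normalization (0.0488), with a pseudocount of 16 (0.0487) and when dimmer probe sets were dropped (0.017). H2BC12L read 1563, 1477 and 1794 against 1711, 1749 and 2039, with overlapping groups (adjusted p = 0.326). H2BC3 was dim on all 3 arrays labelled MALT1, at 5.23 to 11.5, and read 22.4 to 27.3 on the mock arrays, at least 1.42-fold lower (adjusted p = 0.0197; the call was lost without any 1 of the 3 mock arrays, with adjusted p between 0.052 and 0.0671). The remaining H2B genes did not pass, with log2 fold changes from −0.95 (H2BC11) to 0.59 (H2BC15).

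Linker histone genes of the clusters were the only clustered type in which more genes fell than rose. Of 6 genes, 2 fell, none rose and 4 missed the threshold, and the median log2 fold change was −0.61. H1-1 read 36.9, 24.2 and 29.5 on the arrays labelled MALT1 and 254, 171 and 181 on those labelled mock. The lowest mock array was several times the highest array labelled MALT1, and the fall was 6.48-fold (log2 fold change −2.70 ± 0.23 SE, adjusted p = 0.00079). H1-3 read 104, 140 and 146 against 185, 300 and 238 (−0.87 ± 0.23, adjusted p = 0.0376), and its call was lost without any 1 array except mock replicate 1. H1-2 read 720 ± 59.4 against 848 ± 96.2 with overlapping groups (adjusted p = 0.232). H1-4 and H1-5 read 43.2 ± 18.5 against 51.9 ± 6.80 and 36.0 ± 5.94 against 30.2 ± 7.61, and H1-6, the testis form, 15.7 ± 11.3 against 28.5 ± 10.6.

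**Figure D2:**
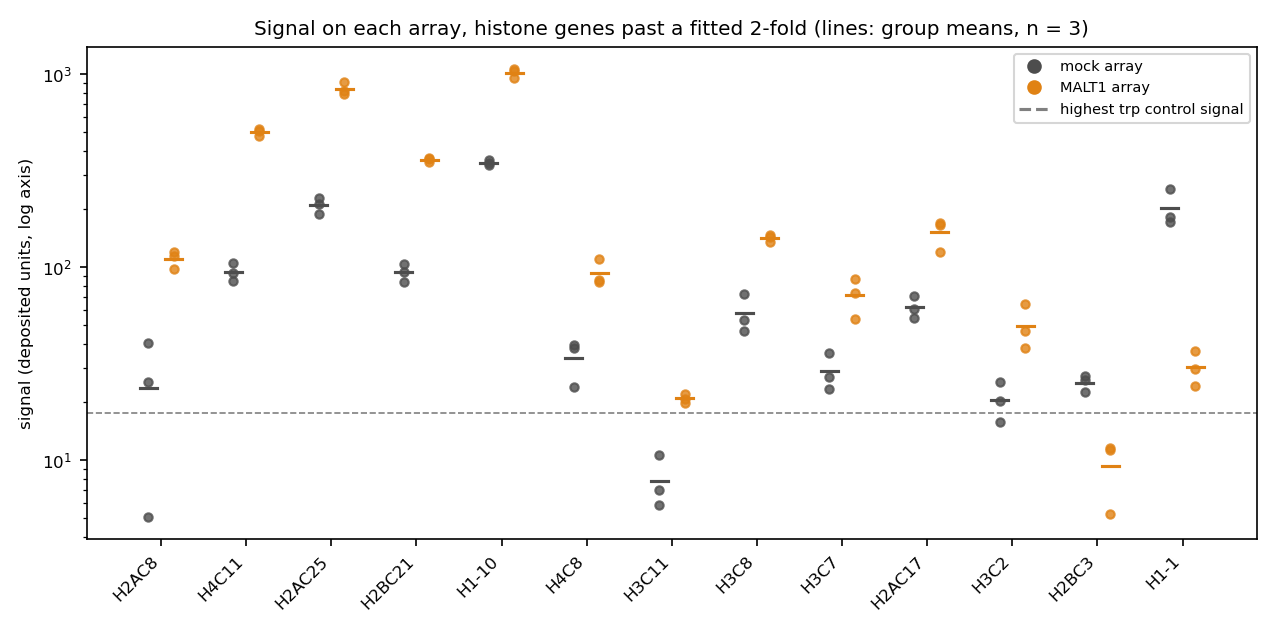
Signal on each of the 6 arrays (log axis, deposited units) of the 13 histone genes that passed with a fitted change of at least 2-fold, with group means as lines and the trp control level dashed. The groups do not overlap for any of the 13, which adds little, as the 13 were picked by adjusted p and fold change. H2BC3 and H3C11 have 1 group below the dashed line at 17.6, so that their changes are bounds of 1.42-fold and 1.18-fold. H2AC8 has 1 mock array at 5.07.

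Of the 48 genes, 18 passed, as did 21 of the 57 probe sets (over all 22215 probe sets 35.6% passed). Of the 18 genes, 11 passed also when any single array was left out: H1-1, H1-10, H2AC17, H2AC25, H2BC21, H2BC5, H3C11, H3C7, H3C8, H4C11 and H4C8. Among these, H3C7 lost its call with the replicate number fitted as a block (adjusted p = 0.0685). The groups did not overlap in 24 of the 41 clustered genes, 17 with the MALT1 group higher and 7 with it lower, where 54.6% of all genes did not overlap (29.0% higher and 25.6% lower). Signals near the control level limited what could be called: 4 clustered genes were dim in both groups and 2 in 1 group. The s_at and x_at suffixes of an ID mark probe sets that can bind several transcripts. Without x_at probe sets, 34 clustered genes remained measured, of which 9 rose and 3 fell. This left H4C11, H3C8, H2BC5 and H2BC9 unmeasured. With only probe sets whose ID lacks both suffixes, 30 remained, of which 6 rose and 3 fell. In the main fit 21.1% of all genes rose and 19.2% fell, so these last counts were not above the background.

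A further 28 probe sets are annotated to several histone genes at once and so name no single gene. Of these, 16 rose, 1 fell and 11 did not pass, where 35.6% of all probe sets passed. Many of them read the same genes, so they are not separate measurements. A probe set shared by 14 H4 genes read 390, 343 and 376 on the arrays labelled MALT1 and 46.1, 52.7 and 59.2 on the mock arrays, a log2 fold change of 2.79 (adjusted p = 0.00012). Another probe set shared by the same 14 genes read 14158 ± 1026 against 10408 ± 960 (0.45, adjusted p = 0.0319), so the size of the H4 difference varied between probe sets of 1 annotation. A probe set shared by 10 H3 genes read 251, 274 and 335 against 52.7, 31.5 and 52.6 (2.65, adjusted p = 0.00112). A probe set shared by H2AC18 and H2AC19 read 2331, 2252 and 2371 against 795, 794 and 846 (1.51, adjusted p = 0.0002). The shared probe sets of H2B genes went both ways, 3 higher and 1 lower of 5, as the single-gene ones did.

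Along chromosome 6, 38 of the clustered genes lie in 3 stretches, split where at least 5 other protein-coding genes intervene between measured histone genes in RefSeq order. From H1-1 to H4C8, 23 genes were measured, of which 7 rose and 3 fell, where 21.1% and 19.2% of all genes did. All 3 falls among clustered genes, H1-1, H2BC3 and H1-3, lay in this stretch, the longest of the 3, at places 1, 6 and 18 of the measured genes. From H2BC11 to H4C9, 0 of 3 genes passed. From H2BC13 to H2BC17, 4 of 12 rose and 0 fell, H4C11, H2AC16, H3C11 and H2AC17. Differences between the stretches were not tested.

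**Figure D3:**
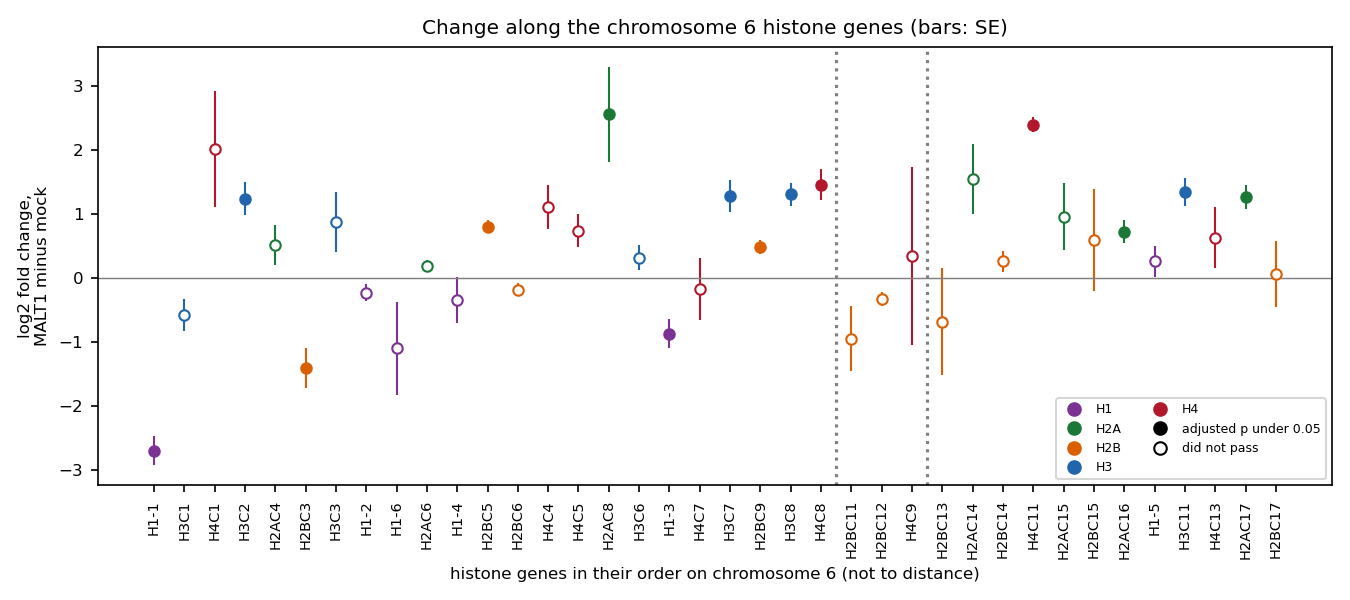
Log2 fold change with SE of 38 clustered histone genes in their order along chromosome 6 (not to distance), coloured by type, with dotted lines between the 3 stretches. Genes near each other differ in direction, as with the fitted values of H3C2 at 1.24 and H2BC3 at −1.41. H2BC3 was dim on the arrays labelled MALT1, so its change is a bound of at least 1.42-fold. Both calls were lost without some single arrays, and dim genes are not marked here. Filled points above 0 occur in both longer stretches.

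Among the 7 variants, H1-10 rose, H2AX fell and 5 did not pass, with a median log2 fold change of 0.028 (−0.10 after median centring and −0.067 after quantile normalization). H1-10, a replication-independent linker histone gene, read 1059, 1043 and 950 on the arrays labelled MALT1 and 357, 346 and 339 on those labelled mock. The groups were far apart, a 2.92-fold rise (log2 fold change 1.55 ± 0.087 SE, adjusted p = 0.00023), opposite to the falls of the clustered linker genes H1-1 and H1-3. H2AX, whose protein is phosphorylated at DNA breaks, read 4668, 4692 and 4840 against 6193, 6104 and 6657 without overlap (−0.42 ± 0.082, adjusted p = 0.0142). Its call was lost without MALT1 replicate 1 (adjusted p = 0.0553) or MALT1 replicate 2 (0.0523), and its other 3 probe sets were lower too but did not pass.

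The 2 genes of H2A.Z, the variant found at promoters, did not pass on their brightest probe sets. H2AZ1 read 11873, 12107 and 10692 against 10146, 10265 and 10775, with overlap (log2 fold change 0.15, 95% interval −0.081 to 0.38, adjusted p = 0.276). The other probe set of H2AZ1 read 11103 ± 209 against 9377 ± 428, without overlap. It did not pass either (0.24, 95% interval 0.036 to 0.45, adjusted p = 0.0745). H2AZ2 read 3323, 3498 and 2805 against 3587, 3592 and 3839 (−0.20, 95% interval −0.49 to 0.094, adjusted p = 0.256). The groups of H2AZ2 did not overlap, and another of its 3 probe sets passed, with 2212 ± 76.6 against 3083 ± 197 (−0.48 ± 0.091, adjusted p = 0.0123).

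The macroH2A genes encode large H2A variants with a non-histone domain, best known from the inactive X chromosome. MACROH2A1 read 6987, 6953 and 7778 against 7122, 7081 and 7762, so that the groups overlapped almost fully (log2 fold change −0.017, 95% interval −0.26 to 0.22, adjusted p = 0.917). A second probe set, at 3831 ± 103 against 4090 ± 218, did not pass either (adjusted p = 0.47). Its remaining probe set read 185, 157 and 139 against 328, 312 and 326 and fell by 1.01 on the log2 scale (adjusted p = 0.00324). MACROH2A2 read 141, 98.0 and 175 against 128, 116 and 144 (0.062, 95% interval −0.55 to 0.67, adjusted p = 0.877).

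H3.3 is the replacement form of H3, encoded by H3-3A and H3-3B. The only probe set of H3-3A alone read 87.2, 113 and 87.3 against 89.4, 113 and 80.0 (0.028, 95% interval −0.44 to 0.49, adjusted p = 0.93), and its direction turned after median centring or quantile normalization. A further 8 probe sets are annotated to both H3.3 genes together with a pseudogene or a microRNA gene. In all 8 the groups did not overlap and the arrays labelled MALT1 were higher, and 4 of 8 passed. Over all 22215 probe sets the groups were apart in 11051, with the MALT1 group higher in 5867, and 35.6% passed. The 8 read the same genes, so they are not separate measurements. Log2 fold changes were 0.19 to 0.71 in 7 of the 8. The other read 1647, 1558 and 1499 against 359, 321 and 342 (2.20, adjusted p = 0.0001), so probe sets of the same annotation disagreed about the size.

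**Figure D4:**
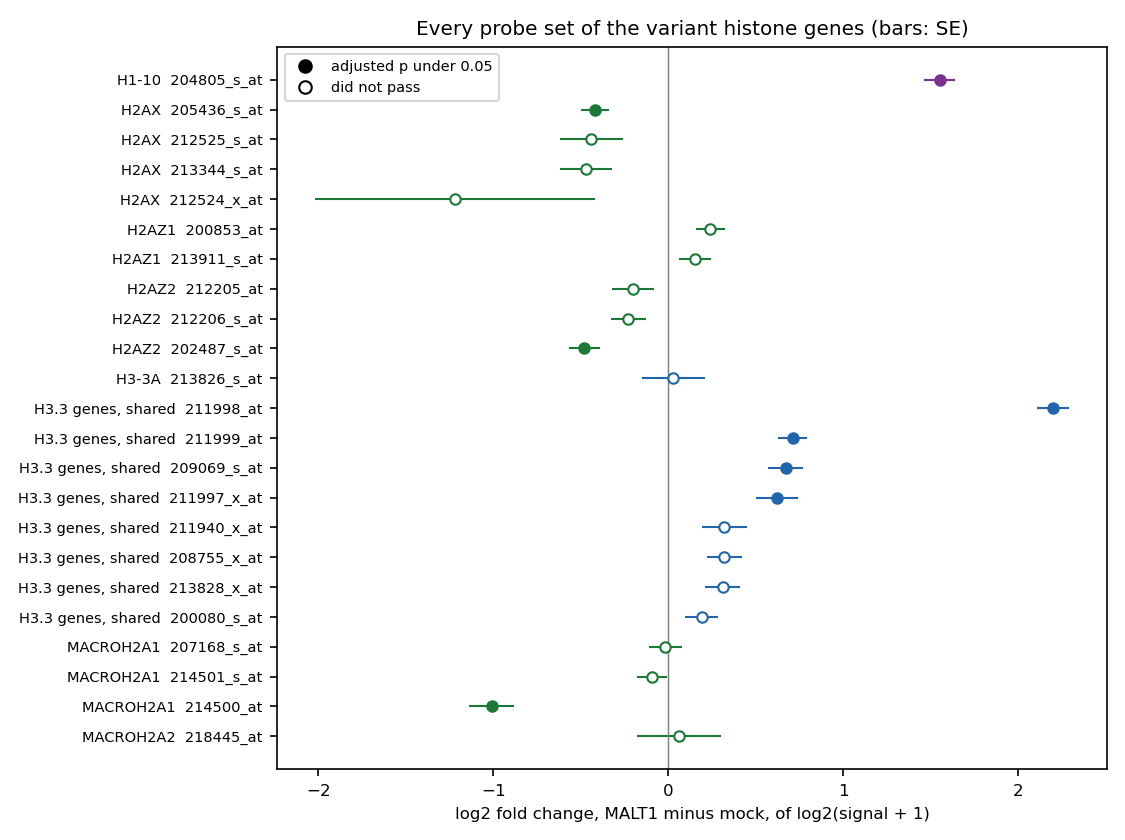
Log2 fold change with SE of every probe set of the variant histone genes, with the 8 probe sets shared by the H3.3 genes. The 4 of H2AX lie below 0, MACROH2A1 has 1 of 3 at −1.01, and the shared H3.3 probe sets run from 0.19 to 2.20.

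Histone genes outside the naming rule were looked up from a list of 11, of which 4 were measured. H2AJ, an H2A gene with a polyadenylated transcript, read 297, 233 and 250 on the arrays labelled MALT1 and 69.4, 59.7 and 56.6 on the mock arrays, without overlap (2.05 ± 0.14, adjusted p = 0.0004). CENPA, the H3 form of centromeres, read 386 ± 107 against 586 ± 2.88 and did not pass (adjusted p = 0.0693), although it passed as lower after median centring (0.0224). H2AP was dim in both groups, and its call was lost after median centring (adjusted p = 0.0636) and quantile normalization (0.159). H3-4 did not pass.

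Genes listed for the transcription, 3′ end processing and decay of histone RNA fell where they passed. Of 16 listed, 11 were measured, of which 7 fell, where 19.2% of all genes did, none rose and 4 missed the threshold. The median log2 fold change was −0.38. NPAT, the coactivator of clustered histone genes, read 233, 180 and 242 on the arrays labelled MALT1 and 568, 576 and 592 on those labelled mock, without overlap (−1.42 ± 0.14, adjusted p = 0.00132). SLBP, which binds the histone stem-loop, read 2607, 2589 and 2264 against 3371, 3305 and 3028 (−0.38 ± 0.10, adjusted p = 0.0391). CSTF2, a cleavage factor, fell by 0.90, ZNF473, a zinc finger protein of histone pre-mRNA processing, by 0.75 and the decay helicase UPF1 by 0.56 on the log2 scale. CASP8AP2, which acts with NPAT, read 570 ± 33.9 against 612 ± 15.5 and did not pass (adjusted p = 0.431).

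Histone chaperones and exchange factors went both ways. Of the 26 listed genes, all measured, 4 passed as higher and 5 as lower, where 21.1% and 19.2% of all genes did, so the counts were near the background. The median log2 fold change was 0.013 (−0.12 after median centring). RBBP4 and RBBP7, histone-binding proteins of several chromatin complexes, rose by 0.96 and 0.76 (adjusted p = 0.00084 and 0.00285). HJURP, the chaperone of CENPA, read 413, 473 and 368 against 895, 894 and 1046 and fell by 1.18 (adjusted p = 0.00219). SSRP1, a subunit of the FACT complex, fell by 0.87 and the nucleosome assembly protein gene NAP1L4 by 0.97, whereas SUPT16H, the other FACT subunit, did not pass (0.12, adjusted p = 0.304). The large and middle subunits of the replication-coupled assembly factor, CHAF1A and CHAF1B, did not pass (−0.33 and −0.013).

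DNA replication genes, expressed in the phase in which clustered histone genes are transcribed, had no common direction. Of the 21 measured genes of 22 listed, 7 passed as higher and 5 as lower, where 21.1% and 19.2% of all genes did. In all 57.1% of the list passed, against 40.4% of all genes. The median log2 fold change was 0.0054 (−0.12 after median centring). MCM3, a helicase subunit, read 2218, 2194 and 2016 against 1189, 1251 and 1209 (0.82 ± 0.085, adjusted p = 0.0016), GINS2 rose by 0.84 and TYMS by 0.58. RRM1, a subunit of ribonucleotide reductase, read 4848, 4881 and 4445 against 9575, 9609 and 9959 (−1.04 ± 0.084, adjusted p = 0.00069), and PCNA fell by 0.50 (adjusted p = 0.0396).

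**Figure D5:**
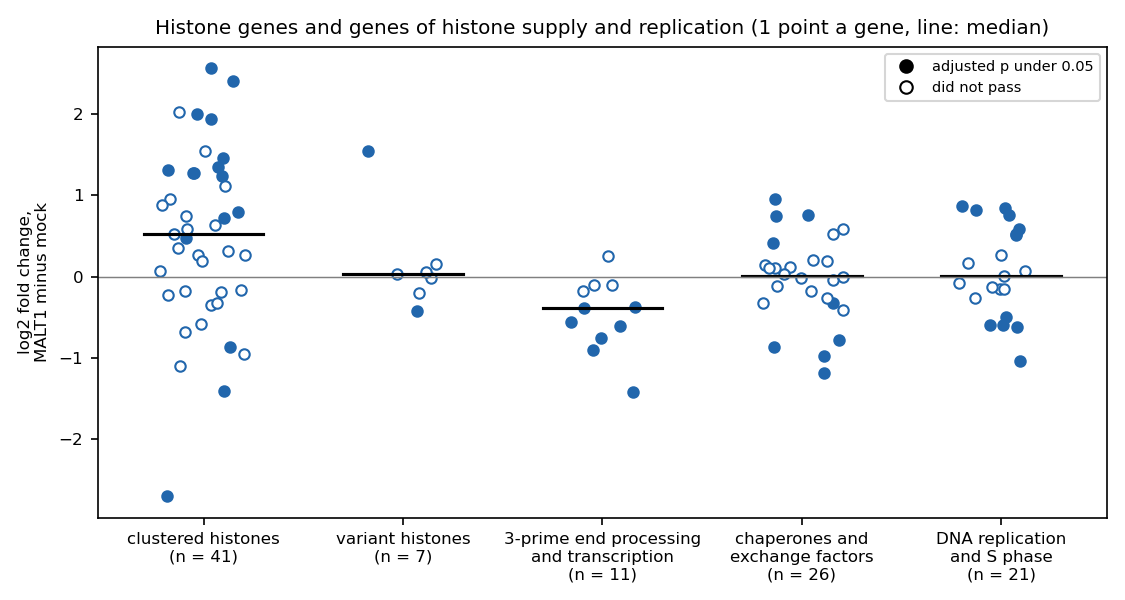
Log2 fold change of each measured gene of the clustered and variant histones and of 3 lists of genes that act on histones or in replication, with the median as a line and filled points for genes that passed. The clustered histones spread from −2.70 to 2.56, and the genes listed under transcription and 3′ end processing lie mostly below 0 (median −0.38).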

How the data were processed

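The deposited values were linear signal intensities, 1 per probe set and array, already summarised over probes by the authors. The sources used here do not name the software, and detection calls were not used. Per the labels' protocols, biotinylated RNA was made from 100 ng of total RNA extracted with Trizol. The table held 22277 probe sets, and 22215 were tested after 62 controls were left out. Of these, 19064 had 1 gene symbol, 1043 several and 2108 none in the platform annotation. All 57 histone probe sets were matched by gene ID to RefSeq (GRCh38.p14), from which names, order and promoters come. limma 3.58.1 in R 4.3.3 was fitted to log2(signal + 1) of all 6 arrays with group as the only term, and its two-sided p-values were Benjamini-Hochberg adjusted across the 22215 tested probe sets. The added 1 makes fold changes of dim genes smaller. The fit was tested on simulated data.

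The members, lists and the level of 17.6, the highest of 3 trp control probe sets, were chosen with earlier results of these data known. Values are given for members past the threshold with a fitted change of at least 2-fold, the 2 clustered and 2 variant genes with the highest mean, all variants, and up to 4 genes of each other list by adjusted p. Others named, and the motifs, stretches and shared probe sets, were picked once their values were known. The alternatives were a pseudocount of 16, dimmer probe sets left out, median centring, quantile normalization, the replicate number as a block, each array left out, the mean over a gene's probe sets and x_at probe sets left out; the restriction to probe sets without s_at or x_at was chosen after seeing the data. Only 6 arrays limit the precision.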

Additional observations from a re-analysis of the deposited data

How the results depend on the processing

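Counts of calls mostly stayed within 1.5 times: 88 of 95 alternative counts did. This compares counts and not shares, although some settings measured fewer genes. Without the dimmer probe sets 11 of 15 measured clustered genes passed, a larger share than the 16 of 41 of the main fit. The counts outside 1.5 times were these. Clustered genes at least 2-fold apart were 7 of 15 measured without the dimmer probe sets, and 7 of 30 with only probe sets without the s_at or x_at suffix (a choice made after seeing the data), where 9 of 30 passed in all. The last setting left 4 variant genes, of which 1 passed. The variants that passed were 1 or 2 when single arrays were left out. Without 1 array, clustered genes that passed ranged from 11 to 15. Added after seeing the data, 14 of 35 passed without members dim in either group, and 15 without H2AC25 and H2BC12L. Replicate numbers are not said to pair samples, and deviations of same-numbered arrays correlated at 0.0587, −0.00254 and 0.0607. With the replicate block 12 clustered genes (10 higher, 2 lower), 10 at least 2-fold, and 1 variant passed. Among members 6 calls were lost (H2AC16, H2AC8, H2AX, H2BC3, H2BC9 and H3C7) and 1 was gained (H4C4).

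For the 21 members named by rule, 227 of 264 alternative values kept direction and call, 20 lost the call, 6 gained it (H2BC12, H2AZ2, MACROH2A1) and 11 turned direction, all in genes that did not pass. Leaving out single arrays moved H3-3A between −0.095 and 0.17, MACROH2A1 between −0.07 and 0.026 and MACROH2A2 between −0.13 and 0.29. H3-3A turned to −0.10 with median centring, −0.067 with quantile normalization, −0.095 without MALT1 replicate 2, and −0.0028 and −0.082 without mock replicates 1 and 3. MACROH2A2 turned to −0.067 with median centring, −0.13 without MALT1 replicate 3 and −0.015 without mock replicate 2. MACROH2A1 turned to 0.0077, 0.011 and 0.026 without MALT1 replicate 1, MALT1 replicate 2 and mock replicate 3. Averaging probe sets gave MACROH2A1 −0.37 (adjusted p = 0.014), H2AZ2 −0.30 (0.0488) and H2AX −0.64 (0.0543). The cause of these shifts was not tested. Signals near the control level limit the dim clustered genes.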

Other observations

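Some H2A and H2B genes stand next to each other and are transcribed away from each other. Among the 3 such pairs with both genes measured, log2 fold changes were 1.27 ± 0.19 SE for H2AC17 and 0.066 ± 0.52 for H2BC17, and 1.55 ± 0.55 for H2AC14 and 0.26 ± 0.16 for H2BC14. In the remaining pair H2AC15 was dim in both groups, and H2BC15 had 0.59 ± 0.80. Of these 6 genes H2AC17 alone passed, and differences within a pair were not tested.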
